A study of Homo sapiens with 6 samples.

Results

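The replication-dependent histone genes encode the core histones H2A, H2B, H3 and H4 and the linker histone H1. The members described here are the 56 genes whose symbol begins with HIST1H, HIST2H, HIST3H or HIST4H and is not marked as a pseudogene by the letters PS, among 19491 genes measured. They comprise 4 H1, 14 H2A, 18 H2B, 9 H3 and 11 H4 genes. RNA was sequenced from PC-3, an androgen-independent prostate cancer cell line established from a bone metastasis. The cells were grown for 48 h without inhibitor (control), with 1 mM GPNA (L-γ-glutamyl-p-nitroanilide) or with 10 mM BenSer (benzylserine). Both compounds block the glutamine transporter ASCT2 (SLC1A5). The study also reports lower leucine uptake with BenSer. It proposes effects of BenSer beyond ASCT2, since BenSer also inhibits the amino acid transporter LAT1 (SLC7A5) in oocytes. The labels name 6 libraries, 2 per group, and do not say whether the 2 came from separate cultures. The study asked how blocking ASCT2 changes gene expression in these cells.

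Histone mRNAs are made mainly in S phase, when new DNA has to be packed into nucleosomes. Most are short, have no introns and do not end in a poly(A) tail. Their 3′ end is instead a stem-loop that is bound by the stem-loop binding protein SLBP and cut with the help of the U7 small nuclear ribonucleoprotein. NPAT, a substrate of cyclin E and CDK2, activates their transcription. Some histone genes also give longer, polyadenylated transcripts, which can be made outside S phase. The libraries were prepared from total RNA, so that mRNAs without a poly(A) tail could be captured.

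Each value is in CPM, the reads of a gene per 1000000 reads of its library. The library totals were 23077986 to 23227180 reads for control cells, 25452745 to 25798967 after GPNA and 31943025 to 32178154 after BenSer. The 2 libraries of a group were nearly as alike as repeated draws of reads from 1 pool: over all genes, chi-square divided by its degrees of freedom came to 1.06 for the control pair, 1.05 for the GPNA pair and 1.05 for the BenSer pair. Over the members it was 1.38, 1.04 and 1.19. Each group was therefore counted as 1 sample, and no p-value is given for the effect of a compound. Between library 1 of GPNA and library 1 of the control the same statistic was 5.76 over the members and 5.50 over all genes, and between library 1 of BenSer and library 1 of the control it was 128 and 20.7. This statistic grows with the reads of a gene, so it does not compare the size of the differences of members and other genes. The excess coefficient of variation estimates the variation beyond read sampling, and genes with many reads weigh most in it. Between the GPNA and control libraries it was 4.95% over the members and 8.08% over all genes. Between the BenSer and control libraries it was 27.1% and 14.3%. Differences are given as log2(mean CPM + 1) with 95% intervals by the exact Clopper-Pearson method, taken after merging the reads of a group, which cover counting error only. The epithelial and PC-3 markers KRT8, KRT18, EPCAM, CDH1, VIM and CD44 were all detected, at 87.3 to 289 CPM in the control. Of 6 markers of other cell types only the fibroblast gene COL1A1 was listed, at 5.57 CPM.

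Together the members took 3645 and 3634 CPM in the control libraries, 3501 and 3532 CPM with GPNA and 2534 in both BenSer libraries. Their summed level was thus close to that of the control with GPNA (-3.38%) and clearly lower with BenSer (-30.4%). On the log2 scale the difference in the sum was -0.05 (interval -0.06 to -0.04) for GPNA, which moved to -0.0098 with TMM scaling (trimmed mean of M-values) and to -0.020 when scaled to the listed genes, and -0.52 (interval -0.53 to -0.51) for BenSer. In RNA from whole cultures, fewer cells in S phase and less histone mRNA per S-phase cell cannot be told apart, and the amount of RNA per cell was not measured.

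The H2B genes gave the largest share of the control sum (40.7%), followed by H2A (23.8%), H1 (16.04%), H4 (10.9%) and H3 (8.61%). With BenSer these shares were 41.9%, 24.2%, 15.1%, 10.5% and 8.38%, so the decrease was spread over all 5 classes. The summed H1 level was 585 and 583 CPM in the control, 543 in both GPNA libraries and 385 and 380 CPM with BenSer, a BenSer difference of -0.61 (interval -0.63 to -0.58). H2A went from 864 and 869 CPM to 610 and 616 CPM, a difference of -0.50 (interval -0.52 to -0.48). H2B went from 1483 and 1478 CPM to 1066 and 1055 CPM, a difference of -0.48 (interval -0.50 to -0.47). The classes H3 and H4 had BenSer differences of -0.56 (interval -0.59 to -0.53) and -0.57 (interval -0.60 to -0.54). The GPNA differences of the 5 sums lay between -0.10 for H1 and -0.03 for H2A. That of H1 was -0.018 without HIST1H1E and -0.063 with TMM scaling, and those of H2A and H3 changed sign, to 0.01, with TMM scaling.

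**Figure D1:**
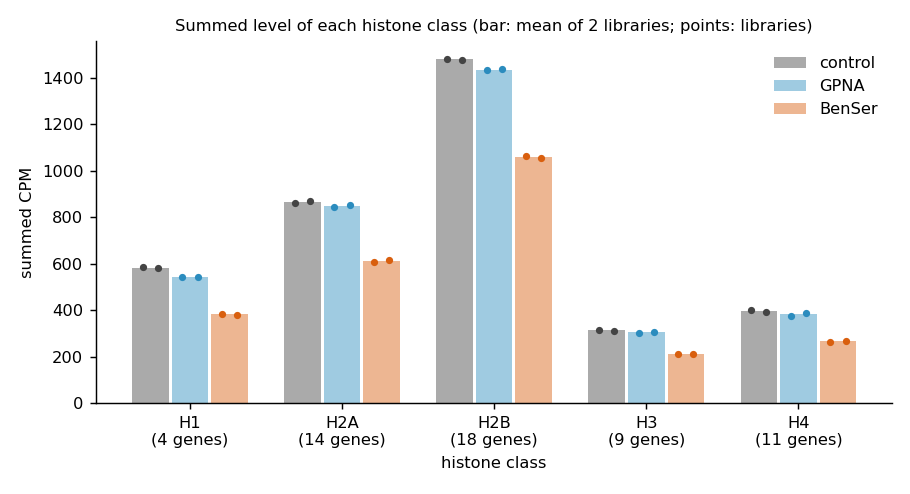
Summed CPM (vertical axis) of the H1, H2A, H2B, H3 and H4 members in control, GPNA and BenSer. Bars are the mean of 2 libraries and points are the libraries; in every class both BenSer points lie below the control and GPNA points, for example 385 and 380 CPM against 585 and 583 CPM for H1.

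Among the members the levels covered more than 3 orders of magnitude. In the control the highest was HIST1H1E, the gene of linker histone H1.4, at 317 and 320 CPM, and it alone made up 54.5% of the H1 sum. To compare genes per length, CPM was divided by the length of the main annotated transcript. On that scale the leading members of their classes in the control were HIST1H1E (405 CPM per kb) and HIST1H1C (199) for H1, HIST1H2AG (343) and HIST2H2AC (333) for H2A, HIST1H2BK (449) and HIST2H2BF (418) for H2B, HIST1H3C (276) and HIST1H3B (102) for H3, and HIST1H4E (320) and HIST1H4J (218) for H4. Reads of the longer transcripts of a gene count towards its CPM but not towards this length. At the other end lay HIST1H1T, the testis H1, with 5 control reads (0.108 CPM), the H2A gene HIST1H2AM (0.216 CPM) and the H4 gene HIST1H4D with 8 control reads (0.173 CPM).

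**Figure D2:**
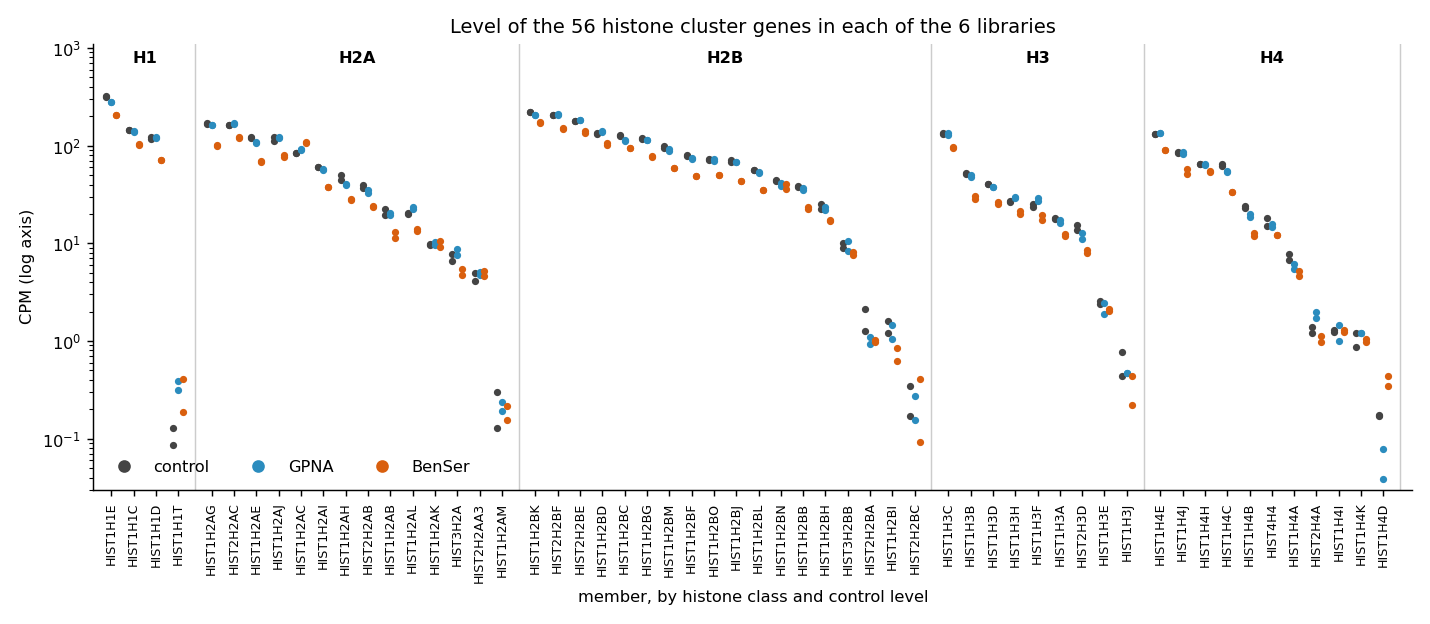
CPM of each of the 56 members (vertical log axis) in the 6 libraries, by class and in order of control level; 2 points of one colour are the 2 libraries of a group. Above about 10 CPM the points of a group lie almost on each other and most BenSer points lie below the others, HIST1H2AC and HIST1H2AK being exceptions.

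With BenSer, 51 of the 56 members had a lower mean than the control and 5 a higher one, where 55.4% of all genes had a lower mean. Counting error left the interval below 0 for 45 members, above 0 for 1 and across 0 for 10. Over all genes it lay below 0 for 25.8% and above 0 for 18.2%. Whether an interval excludes 0 depends on the reads of a gene, and these shares were not matched for level. The same holds for the interval, overlap and edgeR shares over all genes given below. At a threshold of 1.5-fold, 20 members were lower and 0 were higher. Over all 18976 genes that passed the filter of 5 reads, 1.58% were 1.5-fold lower and 1.96% were higher. The member median was -0.48 on the log2 scale (quartiles -0.66 and -0.27), against -0.03 over all genes. Of the 40 members with a mean over the groups of at least 10 CPM, 39 were below the control and 20 were 1.5-fold lower, where 2.33% of the 7924 genes of that level were. The 16 members under 10 CPM lay between -0.49 and 0.24 and none of them reached 1.5-fold, on a scale where the pseudocount of 1 shrinks the change of low genes.

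The lowest value with BenSer belonged to the H4 gene HIST1H4C. It had 64.4 and 62.4 CPM in the control, 54.2 and 55.0 CPM after GPNA and 33.6 and 33.3 CPM with BenSer, so that the BenSer libraries were well below the other 4. Its BenSer difference was -0.90 (interval -0.98 to -0.82). HIST1H4B, an H4 gene of the same cluster, had 24.1 and 23.1 CPM in the control, 18.8 and 19.96 CPM after GPNA and 11.8 and 12.9 CPM with BenSer, a BenSer difference of -0.88 (interval -1.004 to -0.75). In both genes the groups did not overlap and GPNA lay between control and BenSer.

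HIST1H2AE, an H2A gene, was at 119 and 123 CPM in the control, 108 and 109 CPM after GPNA and 67.4 and 69.2 CPM with BenSer. Its BenSer difference was -0.82 (interval -0.87 to -0.76). HIST1H3B, which encodes histone H3.1, was at 51.4 and 52.8 CPM in the control, 50.04 and 47.7 CPM after GPNA and 28.2 and 30.7 CPM with BenSer, a difference of -0.80 (interval -0.89 to -0.72). For both genes the BenSer libraries stood apart from the rest.

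HIST1H2AG, the leading H2A member, was at 170 and 168 CPM in the control, 162 and 164 CPM after GPNA and 98.3 and 101 CPM with BenSer, a difference of -0.76 (interval -0.80 to -0.71). HIST1H1D, the gene of linker histone H1.3, was at 122 and 118 CPM in the control, 120 and 123 CPM after GPNA and 70.8 and 71.3 CPM with BenSer, a difference of -0.75 (interval -0.81 to -0.69). HIST1H1D thus lay at the control level with GPNA and well below it with BenSer. The most abundant member, HIST1H1E, went from 317 and 320 CPM to 208 and 207 CPM with BenSer, a difference of -0.62 (interval -0.65 to -0.58), and was at 282 and 280 CPM with GPNA.

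Other leading members were less reduced. HIST1H3C was at 136 and 133 CPM in the control and 94.4 and 96.0 CPM with BenSer (-0.49, interval -0.54 to -0.44). HIST1H4E was at 132 CPM in both control libraries and 90.5 and 90.2 CPM with BenSer (-0.54, interval -0.59 to -0.49). HIST2H2AC was at 165 and 164 CPM in the control and 121 and 124 CPM with BenSer (-0.42, interval -0.47 to -0.38). HIST2H2BF was at 204 and 207 CPM in the control and 150 and 149 CPM with BenSer (-0.45, interval -0.49 to -0.41). In each of these 4 genes the BenSer libraries lay below both control libraries without reaching 1.5-fold. HIST1H4J was at 86.1 and 83.5 CPM in the control and 51.4 and 57.4 CPM with BenSer (-0.63, interval -0.70 to -0.57). Only 7.94% of the 50-base words of HIST1H4J were absent from other annotated genes, its transcript being 99.0% identical to that of HIST1H4K (1.21 and 0.867 CPM in the control), so how the reads were split between these genes is uncertain.

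HIST1H2AC, which encodes an H2A protein, went the other way. It had 85.2 and 83.7 CPM in the control, 93.5 and 89.3 CPM after GPNA and 107 and 109 CPM with BenSer. The groups did not overlap, and the order was control, GPNA, BenSer. The difference was 0.35 (interval 0.29 to 0.41) for BenSer and 0.11 (interval 0.05 to 0.17) for GPNA. With the threshold lowered to a ratio of 5 to 4, it was the single member higher with BenSer, against 41 lower. No share over all genes is given at that ratio. HIST1H2AK, another H2A gene, was level at 9.90 and 9.71 CPM in the control, 10.4 and 9.66 CPM after GPNA and 9.20 and 10.5 CPM with BenSer (0.01, interval -0.16 to 0.17). HIST2H2AA3 had 4.13 and 5.03 CPM in the control and 5.25 and 4.63 CPM with BenSer (0.09, interval -0.12 to 0.30), and the groups overlapped.

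**Figure D3:**
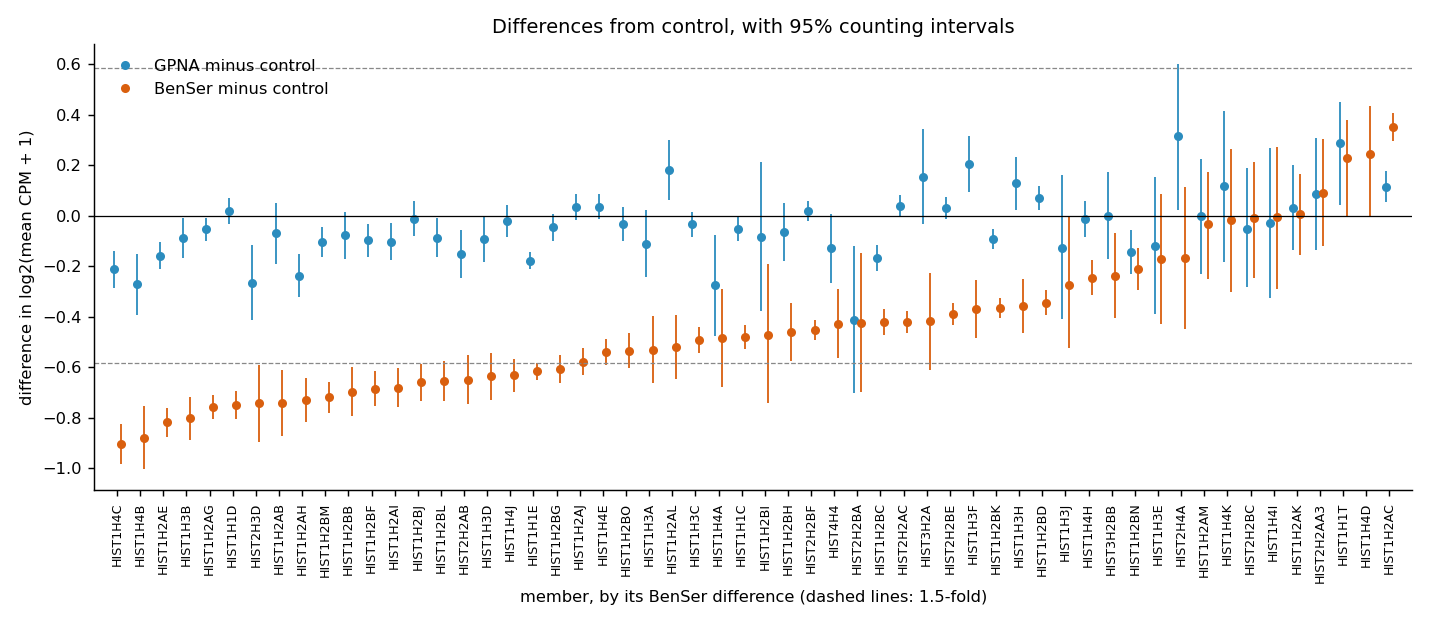
Difference from control in log2(mean CPM + 1) (vertical axis) for each member with GPNA and with BenSer, in order of the BenSer value; lines are 95% counting intervals and dashed lines mark 1.5-fold. BenSer values run from -0.90 for HIST1H4C to 0.35 for HIST1H2AC while GPNA values run from -0.41 to 0.31; HIST1H4D has no GPNA value because it did not pass the filter there.

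The 11 H4 genes encode a single protein of 103 residues, yet their transcripts differed in level and in change. Their coding sequences were 79.6% to 100% identical between pairs. BenSer differences ran from -0.90 for HIST1H4C to 0.24 for HIST1H4D, a gene with 8 control reads and 25 with BenSer. HIST1H4H, at 64.3 and 65.5 CPM in the control, had nearly the control level of HIST1H4C but 54.7 and 54.4 CPM with BenSer, a difference of -0.25 (interval -0.32 to -0.18) whose interval did not overlap that of HIST1H4C. HIST1H4H has 3 annotated transcripts where HIST1H4C has 1. Of the 50-base words of HIST1H4H, 11.8% also lay on the other strand of another annotated gene. HIST1H4I had nearly the same mean, 1.27 CPM in control cells and 1.26 CPM after BenSer, within counting error (-0.01, interval -0.29 to 0.27). Among the 9 H3 genes, 8 encode one 136-residue protein, and their BenSer differences ran from -0.80 for HIST1H3B to -0.17 for HIST1H3E. HIST1H3E had only 114 control reads and 133 with BenSer, and its interval, -0.43 to 0.09, spanned 0. Among those of these genes above 10 CPM the highest value was -0.36, for HIST1H3H (interval -0.47 to -0.25). The 14 H2A genes encode 9 proteins. The 14 H2B genes placed in the genome as coding genes encode 13.

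The stem-loops are shown because they mark the 3′ ends of the short, non-polyadenylated mRNAs. They were read from the GRCh37 (hg19) genome, which holds 54 of the 56 members in the annotation used; HIST1H2BF and HIST1H2BG were not placed. The pattern searched on the gene's strand was a 6-base stem, a 4-base loop and the complementary 6-base arm, with G-T pairs allowed, beginning GG and ending CC, with T on both sides of the first stem-loop boundary and A just after the loop. All 52 coding members placed there held one, 22 to 67 bases after the stop codon. Of the 4102 coding genes of chromosomes 1, 6 and 12, members included, 1.66% held one in the 150 bases after their stop codon. Of these 68 genes 50 were members, and 16 of the other 18 carried a histone gene symbol. HIST1H2BI and HIST1H3E, not shown, held further loop variants. Capitals mark the 2 arms and lower case the loop, written as DNA 5′ to 3′.
HIST1H2AC and 29 other members, none of them H4: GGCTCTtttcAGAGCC
HIST1H4C and 7 other H4 members: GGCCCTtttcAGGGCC
HIST1H2BK and 5 other members: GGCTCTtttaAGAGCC
HIST1H4I, HIST1H4K and HIST2H4A: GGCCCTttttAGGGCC
HIST2H2AC: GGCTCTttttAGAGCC
HIST1H2AG: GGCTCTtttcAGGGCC
HIST1H2AK: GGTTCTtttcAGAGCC
HIST1H2AC therefore carries the same 16 bases as HIST1H2AE, HIST1H3B and HIST1H1D, 3 of the most reduced members. HIST1H2AG and HIST1H2AK differ from that sequence within an arm, and HIST1H2AG was among the most reduced members while HIST1H2AK was level.

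Members were then described by the transcripts annotated for them. Of the placed members with at least 10 CPM, 28 had a single short unspliced transcript and 10 had at least 1 transcript that was spliced or over 1000 bases. With BenSer the former lay between -0.90 and -0.36, with a median of -0.64, and 17 of the 28 were 1.5-fold lower. The latter lay between -0.66 and 0.35, with a median of -0.37, and 1 of the 10 was 1.5-fold lower. The ranges overlapped. With GPNA the medians were -0.08 and 0.00. The CPM values add up all transcripts of a gene, so the short and long forms were not measured apart. HIST1H2AC belongs to the second group, with 3 annotated transcripts over chr6:26124373-26139344 and 1668 exonic bases, against 519 for its short form.

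**Figure D4:**
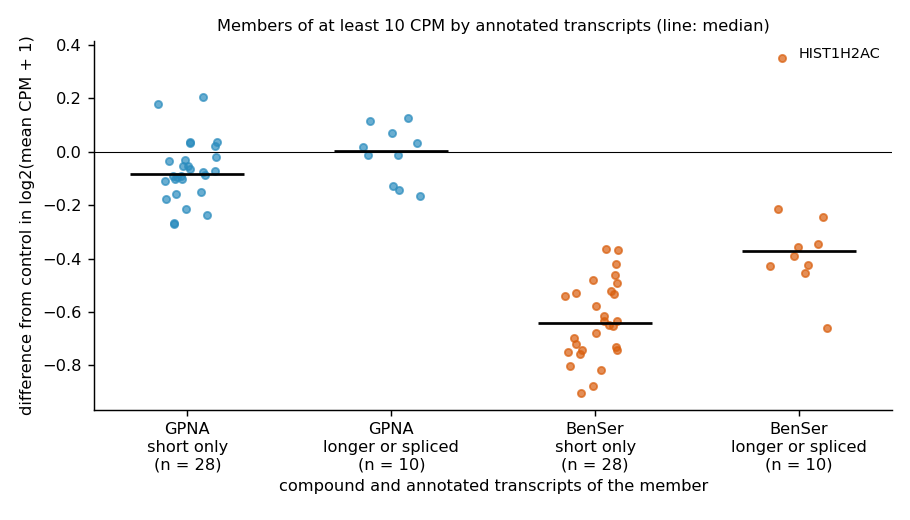
Difference from control in log2(mean CPM + 1) (vertical axis) for members of at least 10 CPM, split by compound and by whether only a short unspliced transcript (28 members) or also a longer or spliced one (10 members) is annotated; lines are medians. The BenSer medians are -0.64 and -0.37, and the point at 0.35 is HIST1H2AC.

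Among the 5 members known to be made with poly(A) tails in some cells, HIST1H1C, the gene of H1.2, was at 146 and 145 CPM in the control and 105 and 102 CPM with BenSer (-0.48, interval -0.53 to -0.43). HIST1H2BD was at 134 and 131 CPM in the control and 107 and 102 CPM with BenSer (-0.35, interval -0.39 to -0.30). HIST1H2BK, the leading H2B member, was at 223 and 222 CPM in the control and 171 and 174 CPM with BenSer (-0.36, interval -0.40 to -0.33). HIST2H2BE was at 179 and 181 CPM in the control and 140 and 135 CPM with BenSer (-0.39, interval -0.43 to -0.35). With HIST1H2AC, the fifth, their median was -0.36, and 0 of the 5 were 1.5-fold lower. HIST1H1C and HIST1H2BK had only a short unspliced transcript annotated. The split by annotated transcripts thus does not separate members with and without poly(A) forms. Only 42.8% of the 50-base words of HIST1H2BK were absent from other annotated genes.

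Many H2A and H2B genes lie head to head and share the stretch between their start sites. There were 9 such pairs with both genes among the placed members, and in 6 of them both genes were lower with BenSer with intervals below 0. Pairs with HIST1H2BF or HIST1H2BG, which were not placed, could not be found. The stretches of 3 pairs are printed because their genes behaved differently. They are given in the direction of the H2A gene, so that the first base lies next to the H2B start and the last next to the H2A start. Capitals mark the TATA box letters TATAAA, the CCAAT box, and the octamer ATTTGCAT on either strand. Some TATA box matches overlap each other.
HIST1H2BC and HIST1H2AC, chr6:26124155-26124399 (hg19), plus strand: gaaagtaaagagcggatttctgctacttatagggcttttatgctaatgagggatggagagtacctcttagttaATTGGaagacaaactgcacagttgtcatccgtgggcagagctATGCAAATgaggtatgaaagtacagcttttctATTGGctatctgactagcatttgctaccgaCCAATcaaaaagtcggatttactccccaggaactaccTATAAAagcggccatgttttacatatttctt
HIST1H2BJ and HIST1H2AG, chr6:27100575-27100821 (hg19), plus strand: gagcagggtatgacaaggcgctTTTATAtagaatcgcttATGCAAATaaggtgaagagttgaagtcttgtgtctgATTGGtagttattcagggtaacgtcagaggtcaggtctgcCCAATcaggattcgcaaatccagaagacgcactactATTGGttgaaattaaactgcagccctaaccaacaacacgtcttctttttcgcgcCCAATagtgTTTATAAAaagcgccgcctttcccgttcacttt
HIST1H2BN and HIST1H2AK, chr6:27806154-27806346 (hg19), minus strand: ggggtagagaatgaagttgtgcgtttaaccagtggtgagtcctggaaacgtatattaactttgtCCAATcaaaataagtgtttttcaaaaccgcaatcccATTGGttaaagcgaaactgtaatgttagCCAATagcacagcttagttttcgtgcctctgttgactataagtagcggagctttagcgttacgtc
The 245 bases between HIST1H2BC and HIST1H2AC held 1 TATAAA, 3 CCAAT and 1 octamer. The genes on either side went in opposite directions: HIST1H2BC was at 129 and 126 CPM in the control and 94.8 and 95.2 CPM with BenSer (-0.42, interval -0.47 to -0.37), where HIST1H2AC was at 0.35. Of the 50-base words of HIST1H2BC, 27.7% also lay on the other strand of another annotated gene, and whether the reads were counted by strand is not given in the sources used here. The 247 bases between HIST1H2BJ and HIST1H2AG held 3 TATAAA, 4 CCAAT and 1 octamer, and both genes were lower by similar amounts (-0.66 and -0.76). HIST1H2BJ went from 71.2 and 67.4 CPM to 43.4 and 43.6 CPM. The 193 bases between HIST1H2BN and HIST1H2AK held 3 CCAAT and neither of the other motifs, as did the stretch between HIST3H2BB and HIST3H2A. HIST1H2BN was at 44.9 and 43.9 CPM in the control and 40.2 and 36.2 CPM with BenSer (-0.21, interval -0.30 to -0.13), the smallest reduction among the H2B members above 10 CPM.

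In windows of 300 bases around the start sites (250 before and 50 after), TATAAA was found in 34 of the 54 placed members, against 11.95% of 27305 RefSeq promoters of the same length. CCAAT was found in 45 of 54, against 35.7%, and in 3 of the 11 H4 genes. The octamer was found in 21 of 54, all of them H2A or H2B genes, against 1.80% of the RefSeq promoters. The windows of both genes of a head-to-head pair overlap, so a match there can count for each of them. The 54 members are thus not 54 separate promoters. These matches are a description of the letters and do not show binding.

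The members are named for 4 clusters. HIST1 on chromosome 6 falls into 3 blocks separated by more than 500000 bases. The first holds 24 placed members, with a BenSer median of -0.49 and 9 members 1.5-fold lower. The second holds 5, with a median of -0.66 and 3 lower, and the third 13, with a median of -0.52 and 4 lower. The 9 members named HIST2, on chromosome 1, had a median of -0.42 with 2 lower. Of these, HIST2H2BA, annotated as a pseudogene, lies at chr1:120906101-120906358, apart from the others at chr1:149754245-149859515. HIST3H2A and HIST3H2BB, also on chromosome 1, were at -0.42 and -0.24, and HIST4H4 on chromosome 12 at -0.43. The medians were thus below the control in every cluster, and the first block alone spanned -0.90 to 0.35.

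With GPNA, 38 of the 55 members that passed the filter had a lower mean than the control and 17 a higher one, where 56.7% of all genes had a lower mean, and 0 were 1.5-fold lower or higher. Over all 18828 genes, 0.0637% were 1.5-fold lower and 0.34% higher. The member median was -0.05, against -0.03 over all genes. The interval lay below 0 for 20 members, above 0 for 7 and across 0 for 28, and over all genes it lay below 0 for 20.1% and above 0 for 9.78%. The most reduced with at least 1 CPM were HIST2H2BA, HIST1H4A and HIST1H4B. HIST2H2BA, annotated as a pseudogene, had 2.11 and 1.26 CPM in the control and 0.930 and 1.10 CPM with GPNA (-0.41, interval -0.70 to -0.12), from 78 and 52 reads in all. Without control library 2 it was 1.5-fold lower, the 1 such member, and none of its 50-base words was absent from other genes. HIST1H4A had 6.80 and 7.76 CPM in the control and 5.50 and 6.17 CPM with GPNA (-0.28, interval -0.47 to -0.08).

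The highest GPNA values among members with at least 1 CPM belonged to 3 genes, HIST1H1T (0.29, interval 0.04 to 0.45) resting on 5 control and 18 GPNA reads and lying under that level. HIST2H4A, an H4 gene whose words were all shared with other genes, had 1.38 and 1.21 CPM in the control and 1.98 and 1.73 CPM with GPNA (0.31, interval 0.02 to 0.60). HIST1H3F, an H3 gene, had 23.3 and 25.002 CPM in the control, 26.9 and 29.0 CPM after GPNA and 17.4 and 19.5 CPM with BenSer. Its GPNA difference was 0.20 (interval 0.09 to 0.31) and its BenSer difference -0.37 (interval -0.48 to -0.26). HIST1H2AL, an H2A gene, had 20.1 and 20.4 CPM in the control, 22.6 and 23.6 CPM after GPNA and 14.1 and 13.5 CPM with BenSer, with differences of 0.18 (interval 0.06 to 0.30) and -0.52 (interval -0.65 to -0.39). In HIST1H3F and HIST1H2AL the GPNA libraries lay above the control and the BenSer libraries below it, without overlap.

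The doses of the compounds differed, and the study proposes effects of BenSer beyond ASCT2. BenSer and GPNA values therefore stand side by side without a statement about the compounds themselves. Set directly against the GPNA libraries, the BenSer libraries were lower for 51 members, where 52.1% of all genes were, with a median of -0.46 against -0.01 over all genes, and 1.5-fold lower for 14. Over all 19056 genes 0.813% were 1.5-fold lower and 1.05% higher, and 0 members were 1.5-fold higher. The interval lay below 0 for 43 members and above 0 for 2, against 20.7% and 21.2% of all genes. HIST1H1D (-0.77, interval -0.82 to -0.71), HIST1H3B (-0.71, interval -0.80 to -0.63) and HIST1H2AG (-0.70, interval -0.75 to -0.66) were lowest. HIST1H2AC was higher with BenSer (0.24, interval 0.18 to 0.29).

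Both BenSer libraries lay below both control libraries for 46 members, where this held for 37.5% of all genes, and below both GPNA libraries for 45, against 33.6%. Both GPNA libraries lay below both control libraries for 23 members, against 34.4% of all genes, and above them for 11, against 22.4%, so the GPNA counts of the members were near those of other genes. The edgeR quasi-likelihood test on the reads compares these libraries and not the treatments. At an adjusted p under 0.05 it called 43 members lower and 1 higher with BenSer, where 17.8% and 18.7% of 19216 genes were called, and 7 lower and 6 higher with GPNA, where 8.83% and 7.63% were. With 1 control or GPNA library left out, the GPNA counts of the members fell or stayed the same, and those over all genes fell.

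Genes that act with the histone genes were taken from lists of genes known for each process. Of 42 S phase genes, 19 were 1.5-fold lower with BenSer and 0 higher, with a median of -0.57, and with GPNA 0 were 1.5-fold different, with a median of -0.16. Examples with BenSer were CDCA7, a partner of the chromatin remodeller HELLS (14.5 CPM in control cells, 12.1 after GPNA and 6.61 after BenSer), the ribonucleotide reductase subunit RRM2 (163, 132 and 91.2 CPM) and the DNA methylation maintenance factor UHRF1 (117, 90.8 and 67.9 CPM). The members and the S phase genes thus had similar BenSer medians, while with GPNA the S phase median lay lower than that of the members. Whether the 2 sets of differences have a common source was not tested.

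The factors that make histone mRNA differed less, SLBP being in the S phase list as well. SLBP was at 25.8 CPM in control cells, 23.1 after GPNA and 19.7 after BenSer (BenSer -0.37). NPAT was at 30.8, 30.1 and 27.9 CPM (-0.14). LSM10, LSM11 and ZNF473, which belong to the U7 processing machinery, had BenSer differences of -0.13, -0.21 and -0.03. Among 19 listed genes of histone mRNA 3′ end processing and decay 0 were 1.5-fold different with either compound, with a BenSer median of -0.13, and among 10 of histone mRNA transcription 0 were, with a median of -0.05.

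Histone chaperones, which carry histones to DNA, had a BenSer median of -0.37 over 24 genes, and 2 were 1.5-fold lower. These were ANP32E, a chaperone of H2A.Z (71.7 CPM in the control, 42.7 with BenSer, -0.73), and CHAF1B, a subunit of chromatin assembly factor 1 that is also in the S phase list (35.8 CPM in the control, 22.1 with BenSer, -0.67). The replication-independent histone variants had a BenSer median of -0.26 over 11 genes. H2AFX, the gene of H2A.X, was at 58.4 CPM in the control and 35.4 with BenSer (-0.71), and H2AFV, which encodes a form of H2A.Z, at 67.1 and 44.3 CPM (-0.59). These were the 2 variants 1.5-fold lower. With GPNA no gene of these lists was 1.5-fold different.

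**Figure D5:**
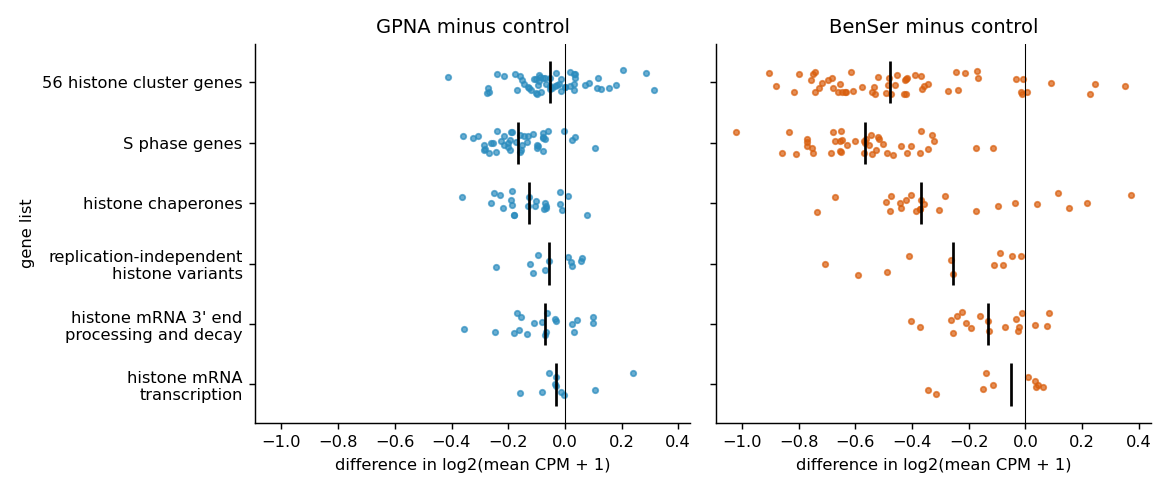
Difference from control in log2(mean CPM + 1) (horizontal axis) for the histone cluster genes and 5 lists of related genes, with GPNA in the left panel and BenSer in the right; each point is a gene and each line a median. With BenSer the medians run from -0.57 for S phase genes and -0.48 for the histone cluster genes to -0.05 for histone mRNA transcription.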

How the data were processed

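The authors deposited values in CPM, in 2 tables of 19491 genes. Per the study's methods, total RNA of PC-3 cells was made into stranded libraries, and paired-end reads were trimmed, mapped to hg19/GRCh37.p13 with TopHat2, counted per gene and divided by the library size. The submitters' processing notes also name Bowtie2, HTSeq 0.6.2p2 and DESeq. The methods speak of 4 replicates per group, and the tables hold 4 value columns per group; the 6 that match a label were used, and 8 column entries of 16 were not. The authors' columns of log fold changes, average levels, p-values and false discovery rates were not used.

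All CPM values (100%, tolerance 0.001) were whole reads over the library total, so reads were recovered. The 2 columns of a group differed by about the sampling noise and were counted as 1 sample. Genes averaging 5 reads or more in 1 of the groups were compared as differences in log2(CPM + 1), with exact Clopper-Pearson 95% intervals on merged reads (SciPy 1.17.1). PCR copies are not independent molecules, so intervals cover counting error only. The recovered reads were also tested with edgeR 4.0.16 (quasi-likelihood), limma 3.58.1 and DESeq2 1.42.0 in R 4.3.3; these p-values measure the spread between libraries that may be technical. The steps were checked on simulated data.

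Members were placed by identifier (30) or older symbol (24, through the RefSeq gene table) in GENCODE v44 lifted to GRCh37. Stem-loops and stretches between genes were read from that genome, and promoter shares from the RefSeq promoter table (GRCh38.p14). Named members were the 2 with the highest control CPM per kb in each class, the 3 most different in each direction in each comparison among those with at least 1 CPM, the 5 poly(A) members, and those that pairs or shared proteins brought up, which were chosen after their values were seen. The members and lists were chosen with earlier results of these data known.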

Additional observations from a re-analysis of the deposited data

How the results depend on the processing

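Under other settings the 20 members 1.5-fold lower with BenSer became 41 at a ratio of 5 to 4 and 0 at 2-fold, and the median of all members, -0.48, was -0.54 and -0.51 with pseudocounts of 0.1 and 0.5, -0.53 with at least 50 reads, -0.44 with TMM scaling, and -0.51 to -0.46 with 1 library left out (-0.51 without control library 2). The summed level was -0.48 with TMM scaling and -0.51 when scaled to listed genes. Members 1.5-fold higher with BenSer were 2 with a pseudocount of 0.1 and 1 at that lower threshold. Against GPNA, BenSer had 37 members lower at that lower threshold and 0 at 2-fold, 1 higher with pseudocounts of 0.1 and 0.5 and at that lower threshold, medians of -0.49 with a pseudocount of 0.1 and with at least 50 reads, and a summed level of -0.49 when scaled to listed genes. With GPNA, 1 member was lower with a pseudocount of 0.1 and at that lower threshold, 1 was higher with a pseudocount of 0.1, and 0 to 1 were lower with 1 library left out. No share over all genes is given beside these fold-threshold counts under other settings. The GPNA median was -0.014 with TMM scaling and -0.0246 when scaled to listed genes, and the summed level -0.0098, -0.020, and -0.0379 without HIST1H1E. By edgeR, leaving out 1 library of the 2 groups compared gave 4 to 7 members lower and 1 to 4 higher with GPNA and 1 to 2 higher with BenSer. Without either BenSer library, 5 were higher with GPNA. In each of these fits edgeR called fewer genes over all genes than with every library kept. limma called 15 members lower with GPNA, where it called 2773 of 19216 genes lower. DESeq2 called 1 member higher with GPNA and 1 higher against GPNA, where it called 558 and 2003 genes higher. Of 846 values of single members and classes under other settings, 38 moved beyond their counting interval and 27 changed sign, all of them from reported values within 0.1 of 0.

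Libraries of different groups share only a number (correlations of 0.01 to 0.03 between same-numbered deviations over 12381 genes). With the replicate block, edgeR called 7 members lower and 6 higher with GPNA and 43 and 1 with BenSer. With 1 sample per group, the spread between cultures is unknown.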

Other observations

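The 3 rows marked PS lay outside the members. HIST1H1PS1, next to the H1 genes by name, had 13 control reads, 20 GPNA reads and 45 BenSer reads, a BenSer difference of 0.41 (interval 0.14 to 0.63). HIST1H2APS3 had 20, 15 and 18 reads, and HIST1H4PS1 25, 33 and 23, with BenSer differences of -0.16 and -0.18 whose intervals spanned 0. The stem-loop search found 68 of the 4102 coding genes with a canonical transcript on chromosomes 1, 6 and 12. Of these 50 were members, and the other 2 members with a stem-loop have no canonical transcript in the annotation. The remaining 18 were no members, and 16 of those 18 carried a histone gene symbol.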
